A study of Zea mays with 68 samples.

Results

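OFP16 (GRMZM2G055257), ZAR1 (GRMZM2G446201), EREB161 (GRMZM2G021573) and bHLH114 (GRMZM2G095899) are 4 maize regulatory genes whose transcripts were abundant in the vegetative shoot apex. They are 4 of the 109715 gene rows in the deposited expression table, found by their identifiers, and all 4 were among the 29827 genes tested. A gene was tested when it reached 1 FPKM (fragments per kilobase of transcript, scaled to the mapped fragments of the library) in at least 2 libraries, and ZAR1 reached this level only in the meristem libraries. The genes were chosen from earlier results on these same values. OFP16 and ZAR1 were picked for the meristem against the mean of the other tissues, EREB161 and bHLH114 also for spikelets against meristem. Their high meristem level, and the low spikelet level of EREB161 and bHLH114, are therefore given as a description with no test.

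The study profiled organs of the maize inbred line B73 by RNA-seq, and its labels list 68 samples of 23 tissues. Table columns of 11 libraries matched 4 of these tissues, all of genotype B73, with no treatment or plant age in the labels. These were the vegetative meristem with its surrounding tissue (2 libraries), mature female spikelets, which bear the flowers of the ear (3 libraries), and the stem internodes 7-8 and 6-7 (3 libraries each). Values for meristem and spikelets rest on reading their column codes as initials.

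The shoot apical meristem is the group of dividing cells at the shoot tip that forms leaves and stem, and its activity is set by transcription factors and growth regulators. OFP16 belongs to the OVATE family, named after a tomato fruit-shape gene. Proteins of this family act as transcriptional repressors in Arabidopsis and bind TALE homeodomain proteins there, the class that includes the maize meristem gene kn1. ZAR1, also listed as ZAR2, shares its name series with genes listed as ARGOS. In Arabidopsis ARGOS is an auxin-inducible gene that promotes organ growth, and overexpression of maize ARGOS genes lowers the response to ethylene. EREB161 is a member of the AP2/EREBP class of plant DNA-binding proteins, and bHLH114 of the basic helix-loop-helix class, whose members bind DNA as dimers.

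As a check of the labels, 11 floral organ genes summed to between 2.52 and 3.56 FPKM in the meristem libraries, against 1517 to 1615 FPKM in spikelets. The 5 organ polarity genes found summed to 62.5 to 69.0 FPKM in the meristem and 43.9 to 62.4 FPKM in spikelets. Their sums were 3.56 to 4.18 FPKM in internode 7-8 and 2.38 to 3.08 FPKM in internode 6-7. Of these yab14 (GRMZM2G005353) lay between 37.3 and 43.9 FPKM in the meristem and 6.21 and 15.5 FPKM in spikelets. It was at most at 0.362 FPKM in an internode library. The genes yab9 and kan3 averaged higher in spikelets than in the meristem, at 32.3 against 6.87 FPKM and 2.48 against 2.18 FPKM. The meristem gene kn1 (GRMZM2G017087), a homeobox gene, did not set the apex apart. It stood at 137 and 139 FPKM in the meristem, against 195 to 307 FPKM in internode 7-8 and 149 to 172 FPKM in internode 6-7. The 10 shoot meristem genes looked up summed to 271 to 273 FPKM in the meristem, 142 to 220 FPKM in spikelets, 425 to 629 FPKM in internode 7-8 and 360 to 431 FPKM in internode 6-7. The 7 stem wall genes looked up did not set the stem apart by their sum. They summed to 404 to 422 FPKM in the meristem and 508 to 744 FPKM in spikelets. Internode 7-8 held 359 to 707 FPKM and internode 6-7 506 to 659 FPKM. Most of each sum was PAL1, which averaged 342 to 546 FPKM over the tissues and was highest in spikelets, as was bk2. In contrast, cesa10, CesA12 and BM1 averaged higher in both internodes than in meristem or spikelets. For cesa10 the averages were 63.1 and 67.3 FPKM in internodes 7-8 and 6-7, against 47.6 and 33.9 FPKM in meristem and spikelets. The cesa11 entries were at or near 0. The 8 photosynthetic leaf genes summed to 116 to 513 FPKM over internode 7-8 libraries and 417 to 531 FPKM in internode 6-7. Meristem libraries held 99.4 to 113 FPKM of these and spikelet libraries 169 to 201 FPKM. The read depth is unknown. By a rough measure of what 1 read is worth, spikelet libraries held 0.403 to 0.712 times the depth of internode 6-7 library 2, and meristem libraries 0.674 and 0.865 times. The labels do not say whether libraries of a tissue stem from separate plants. The p-values therefore cover only the spread between libraries, which may be technical.

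All 4 genes, chosen for being high in the meristem, had their highest mean there, as did 41.4% of all tested genes. Their meristem libraries overlapped those of no other tissue. How often libraries of 2 tissues do not overlap was counted over all tested genes only between the internodes. Outside the apex the genes followed 2 courses. OFP16 and ZAR1 stayed below 3 FPKM in every library outside the apex, whereas EREB161 and bHLH114 kept intermediate levels in the stem and were lowest in spikelets. In bulk tissue, fewer cells of a type and less RNA per cell cannot be told apart.

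OFP16 stood at 35.3 and 34.6 FPKM in the meristem. It was at 1.18, 2.19 and 0.974 FPKM in spikelets, at 1.61, 1.07 and 2.73 FPKM in internode 7-8 and at 0.927, 0.341 and 0.382 FPKM in internode 6-7. Both meristem libraries were far above the other 9, among which spikelets and internode 7-8 overlapped. The meristem mean of 34.9 ± 0.487 FPKM (SD, n = 2) was 19.3 times that of internode 7-8, the next tissue, at 1.81 ± 0.846 (n = 3). Spikelets followed at 1.45 ± 0.649 FPKM (n = 3) and internode 6-7 at 0.550 ± 0.327 (n = 3). The lowest spikelet library, at 0.974 FPKM, lay just above the highest of internode 6-7, at 0.927 FPKM.

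ZAR1 stood at 31.2 and 15.3 FPKM in the meristem. It was at 0.319, 0.472 and 0.665 FPKM in spikelets, at 0.250, 0.486 and 0.0381 FPKM in internode 7-8 and at 0.324, 0.655 and 0.506 FPKM in internode 6-7. All 9 libraries outside the meristem were below 1 FPKM, and their 3 tissues overlapped one another. The meristem mean of 23.2 ± 11.3 FPKM (SD, n = 2) was 46.9 times the internode 6-7 mean of 0.495 ± 0.166 (n = 3). The ZAR1 meristem libraries differed by a factor of 2.04, and on the log2(FPKM + 1) scale this gap exceeded that of 95.2% of tested genes. For OFP16, EREB161 and bHLH114 the gap exceeded that of 8.60%, 23.6% and 40.3% of tested genes. The level of ZAR1 in the apex is therefore known less closely than that of the other 3.

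EREB161 stood at 56.0 and 52.5 FPKM in the meristem, the highest mean of the 4 genes at 54.2 ± 2.52 FPKM (SD, n = 2). It was at 0.546, 0.409 and 0.752 FPKM in spikelets, at 13.7, 6.87 and 7.35 FPKM in internode 7-8 and at 4.65, 3.09 and 2.95 FPKM in internode 6-7. No pair of neighbouring tissues overlapped, in the order meristem, internode 7-8, internode 6-7 and spikelets. The meristem mean was 5.83 times that of internode 7-8, at 9.30 ± 3.80 FPKM (n = 3). Internode 6-7 averaged 3.56 ± 0.943 FPKM and spikelets 0.569 ± 0.173 FPKM (n = 3 each). Within internode 7-8, library 2 was well above the remaining libraries.

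bHLH114 stood at 47.0 and 53.1 FPKM in the meristem. It was at 0.277 and 0.0790 FPKM in spikelet libraries 1 and 3 and listed at 0 in library 2. The stem held more, at 21.6, 18.5 and 16.1 FPKM in internode 7-8 and 11.1, 9.60 and 10.5 FPKM in internode 6-7. The order of tissues was that of EREB161, again with no overlap between neighbours. The step at the top was smaller, since the meristem mean of 50.1 ± 4.31 FPKM (SD, n = 2) was 2.67 times that of internode 7-8, at 18.7 ± 2.78 (n = 3), with 10.4 ± 0.775 FPKM in internode 6-7 (n = 3).

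**Figure D1:**
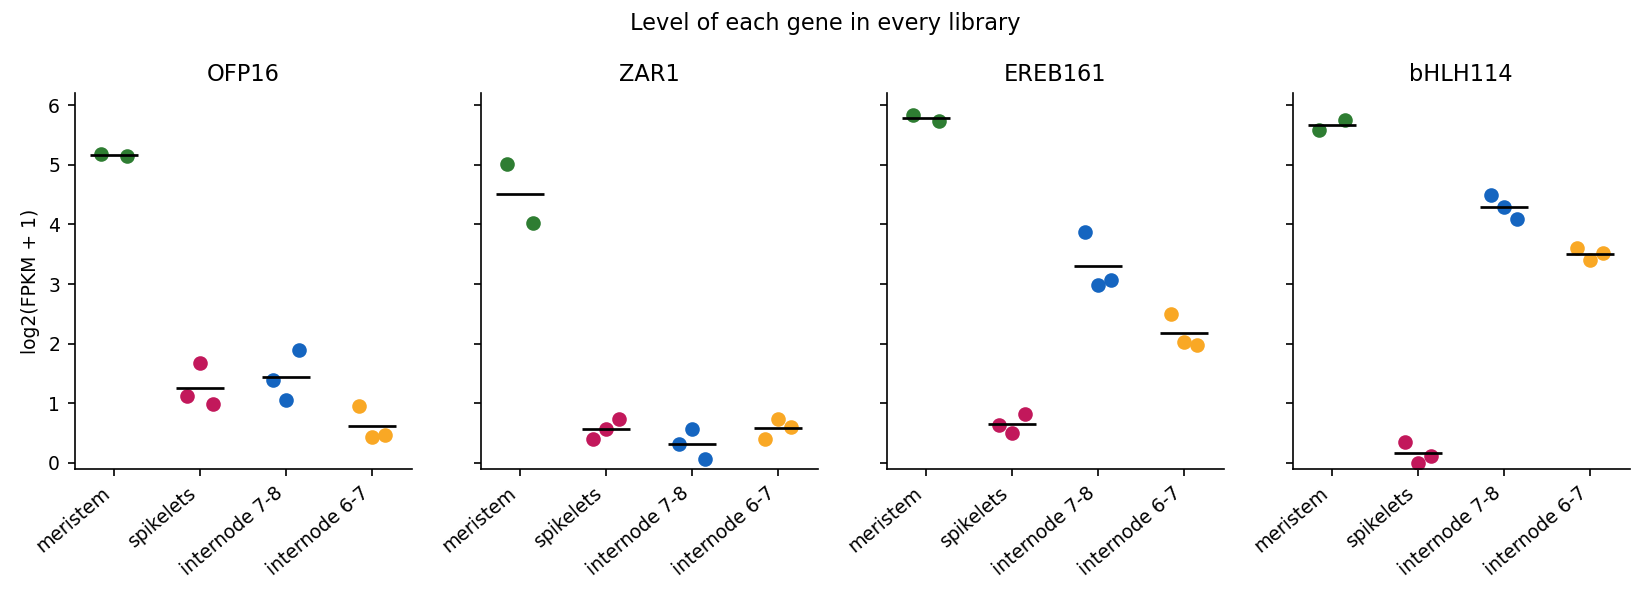
Level of OFP16, ZAR1, EREB161 and bHLH114 in each of 11 libraries, as log2(FPKM + 1). Each point is a library and each line the mean of the log2 values of its tissue. Meristem points are the highest in every panel, EREB161 and bHLH114 form a falling series from meristem through internode 7-8 and internode 6-7 to spikelets, and OFP16 and ZAR1 are low in all 3 tissues outside the meristem.

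The difference in concentration shows in the share that the meristem took of the summed tissue means. It was 94.9% for ZAR1, 90.2% for OFP16, 80.2% for EREB161 and 63.1% for bHLH114. Among all tested genes, EREB161 exceeded 89.3% and 88.8% in the meristem libraries, bHLH114 87.4% and 89.0%, OFP16 82.9% and 82.6%, and ZAR1 80.6% and 64.1%. On the log2(FPKM + 1) scale, the meristem minus the mean of the other 3 tissues was 4.06 for OFP16 (SE 0.26), 4.03 for ZAR1 (SE 0.25), 3.75 for EREB161 (SE 0.24) and 3.02 for bHLH114 (SE 0.17). With a pseudocount of 0.1 in place of 1 these differences became 4.91, 5.56, 4.30 and 3.91, so the scale understates the contrast most for ZAR1. Without any 1 library the differences that could be fitted stayed between 2.93 and 4.14. ZAR1 did not pass the filter on low values once either meristem library was left out.

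The comparison of internode 7-8 with internode 6-7 was not used to choose the genes and could be tested. EREB161 averaged 9.30 FPKM in internode 7-8 and 3.56 FPKM in internode 6-7, a log2 difference of 1.13 (SE 0.26, 95% interval 0.57 to 1.70). bHLH114 averaged 18.7 and 10.4 FPKM in internodes 7-8 and 6-7, a log2 difference of 0.78 (SE 0.17, 95% interval 0.40 to 1.17). OFP16 averaged 1.81 FPKM in internode 7-8 and 0.550 FPKM in internode 6-7, a log2 difference of 0.83 (SE 0.27, 95% interval 0.24 to 1.43). In these 3 genes every library of internode 7-8 lay above every library of internode 6-7, which held for 8.15% of tested genes, and for 19.3% in either direction. For OFP16 the margin was small, with 1.07 FPKM as the lowest value in internode 7-8 and 0.927 FPKM as the highest in internode 6-7. ZAR1 averaged 0.258 FPKM in internode 7-8 and 0.495 FPKM in internode 6-7, with overlapping libraries and a log2 difference of -0.26 (SE 0.26, 95% interval -0.83 to 0.32).

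A call needed a limma adjusted p (Benjamini-Hochberg over all tested genes) below 0.05 together with a log2 difference of 1 or more in size. Of all tested genes 0.124% were called between the internodes, 0.0168% higher and 0.107% lower, and of the 4 genes 0. The limma adjusted p was 0.14 for EREB161, 0.13 for bHLH114, 0.29 for OFP16 and 0.76 for ZAR1. At an unadjusted limma p under 0.05, 3 of the 4 passed, as did 3529 of all tested genes. The unadjusted limma p was 0.0011 for EREB161, 0.00096 for bHLH114 and 0.011 for OFP16. The call did not change under any of 17 alternatives for EREB161, bHLH114 and OFP16, or of 14 for ZAR1. The lowest limma adjusted p reached was 0.0615, for EREB161 without internode 7-8 library 3. The intervals of EREB161, bHLH114 and OFP16 include differences above 1, so a change of that size in the stem was not settled by 3 libraries a side.

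Spikelets were compared with the mean of both internodes, a contrast without a meristem library. OFP16 averaged 1.45 FPKM in spikelets and 1.18 FPKM over the internodes, a log2 difference of 0.23 (SE 0.23, 95% interval -0.29 to 0.75). ZAR1 averaged 0.486 FPKM in spikelets and 0.376 FPKM over the internodes, a log2 difference of 0.12 (SE 0.23, 95% interval -0.38 to 0.62). Neither was called, with limma adjusted p-values of 0.41 and 0.67, while 29.4% of tested genes were. An unadjusted limma p under 0.05 was reached by 0 of these 2 genes and by 18773 of all tested genes. All ZAR1 values in this contrast lie below 1 FPKM, so a difference of 1 could not be reached on the log2(FPKM + 1) scale, here or between the internodes, and the missing calls say little about ZAR1. With a pseudocount of 0.1 the differences were 0.50 for OFP16 (95% interval -0.36 to 1.36) and 0.44 for ZAR1 (95% interval -0.63 to 1.51), so differences above 1 lie within both intervals on that scale. EREB161 and bHLH114 had log2 differences of -2.09 and -3.75 in the same contrast, which are not tested because low spikelet values helped to choose them.

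**Figure D2:**
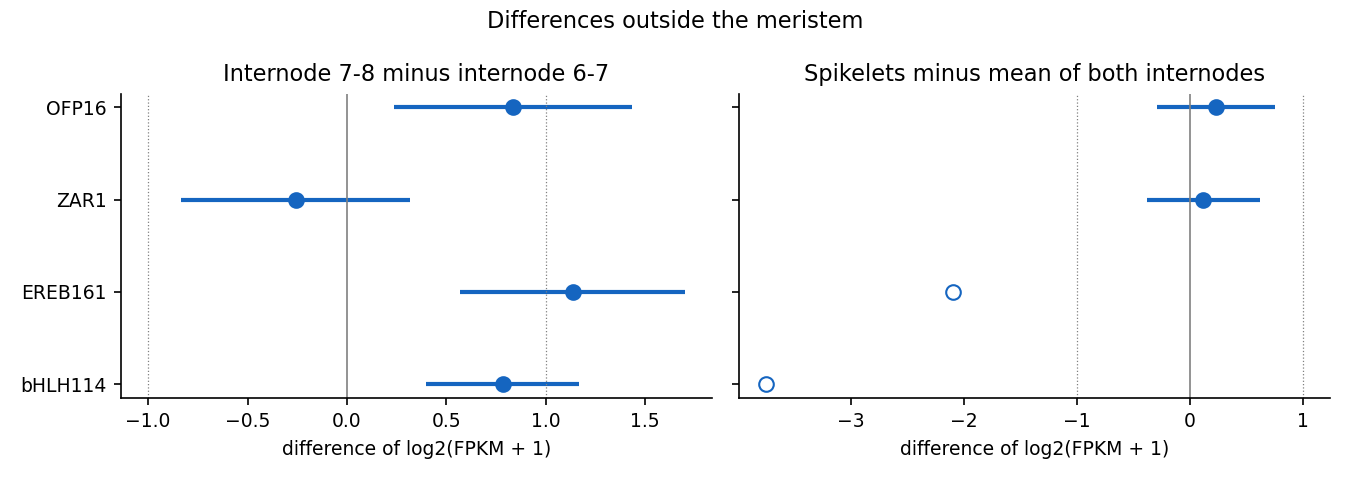
Differences of log2(FPKM + 1) for the 4 genes, internode 7-8 minus internode 6-7 on the left and spikelets minus the mean of both internodes on the right. Filled points are tested and carry 95% intervals from limma, and open points are untested. Dotted lines mark a difference of 1 in either direction, which the low values of ZAR1 cannot reach on this scale.

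Other genes of the same families were drawn from symbol lists, without the 4 genes themselves, and were tested in the same fits. In the meristem against the mean of the other tissues, 16.4% of all tested genes were called higher and 5.28% lower, with a median log2 difference of 0.20. Higher genes made up 75.6% of the calls, and 60.3% after median-of-ratios scaling of the libraries, which moved the median to -0.01. In the meristem comparison 14824 of the 29827 tested genes had an unadjusted limma p under 0.05. The number was 18773 in spikelets against the internodes and 3529 between the internodes. Counts below are on the values as deposited. A gene that reached the filter only through the tissue in question had to be high there, so its call is no support, and each count is also given without such genes.

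The OVATE family list held 10 further genes, of which 7 were tested. In the meristem 4 of the 7 were called higher and 0 lower. Without OFP24 (GRMZM2G100133), which reached the filter only there, 3 of 6 rose, with a median log2 difference of 1.01. OFP32 (GRMZM2G133311) averaged 8.48 FPKM in the meristem, against 0.766, 1.97 and 2.74 FPKM in spikelets, internode 7-8 and internode 6-7, a log2 difference of 1.78 (SE 0.18, limma adjusted p = 7.5e-05). OFP29 (GRMZM2G127431) averaged 15.9 FPKM in the meristem and, like OFP16, was next highest in internode 7-8, at 12.2 FPKM. Its log2 difference was 1.45 (SE 0.31, limma adjusted p = 0.0038), a call lost without meristem library 1 (adjusted p = 0.0615 with limma). OFP24 averaged 1.62 FPKM in the meristem and was listed at 0 in all internode libraries. Without meristem library 1, the count of 4 became 1, and after scaling it was 3. Under the alternatives the count was at most 6. None of these relatives reached 34.9 FPKM, the meristem level of OFP16, a gene chosen for being high there.

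Between the internodes 0 of the 7 OVATE genes were called, 2 had an unadjusted limma p under 0.05, and 1 was called without spikelet library 1. In spikelets against the internodes 2 rose and 2 fell, where 12.7% of all tested genes were called higher and 16.8% lower. OFP25 (GRMZM2G106781) rose by 1.33 on the log2 scale (SE 0.35, limma adjusted p = 0.0077), OFP28 (GRMZM2G122709) also rose, and OFP11 (GRMZM2G037043) fell by 1.86 (SE 0.22, limma adjusted p = 6.0e-05). OFP28 averaged 2.27 FPKM in spikelets and 0.0765 FPKM in internode 7-8, and was listed at 0 in internode 6-7. OFP16, not called in this contrast, was thus in a family whose members went both ways. Higher genes made up 43.0% of all calls in it, and 60.3% after scaling, which moved the median log2 difference of all tested genes to -0.04 from -0.26.

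The TALE homeobox genes, whose Arabidopsis counterparts include partners of OVATE proteins, numbered 10, all tested. In the meristem 0 rose and 1 fell, the gene knox3 (GRMZM2G000743). An unadjusted limma p under 0.05 was reached by 2 of the 10 and by 14824 of all 29827 tested genes. In spikelets against the internodes, where 12.7% of all tested genes were called higher and 16.8% lower, 0 rose and 6 fell. The median log2 difference of the 10 was -1.31. Among them knox4 (GRMZM2G452178) fell by 2.18 (SE 0.19, limma adjusted p = 7.3e-06), and kn1 also fell, to 48.1 FPKM in spikelets, against 249.7 and 158 FPKM in internodes 7-8 and 6-7 (limma adjusted p = 5.0e-05). The highest mean was in internode 7-8 for 6 of the 10 and in the meristem for 1, while of all tested genes 12% were highest in internode 7-8 and 41.4% in the meristem.

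The ARGOS list held 7 further genes, of which 6 were tested. In the meristem ARGOS6 (GRMZM2G162250) rose and 0 fell. It averaged 8.70 ± 1.32 FPKM in the meristem (SD, n = 2), against 1.48, 4.29 and 3.48 FPKM in spikelets, internode 7-8 and internode 6-7, a log2 difference of 1.33 (SE 0.22, limma adjusted p = 0.00088). ZAR3 (GRMZM2G137546) was abundant in all 4 tissues, at 26.1 FPKM in the meristem and 12.3 to 18.9 FPKM elsewhere, and was not called. Unlike ZAR1, both ZAR3 and ARGOS6 averaged above 1 FPKM in every tissue. Of all tested genes, 12.7% were called higher and 16.8% lower in spikelets against the internodes. Of the 6 ARGOS genes 2 were called higher and 0 lower, and without ARGOS8, which reached the filter only through spikelets, 1 of 5 rose. The count called higher was 4 without spikelet library 1, and 1 without spikelet library 2 or 3, internode 7-8 library 2 or 3, or internode 6-7 library 2. ARGOS9 (GRMZM2G082943) averaged 8.17 FPKM in spikelets and 1.81 and 1.64 FPKM in internodes 7-8 and 6-7, a log2 difference of 1.76 (SE 0.17, limma adjusted p = 1.6e-05). ARGOS8 (GRMZM2G354338), best known as a drought-tolerance target in maize, averaged 1.53 FPKM in spikelets, was listed at 0 in internode 7-8, and lost its call in 4 of 15 alternatives.

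**Figure D3:**
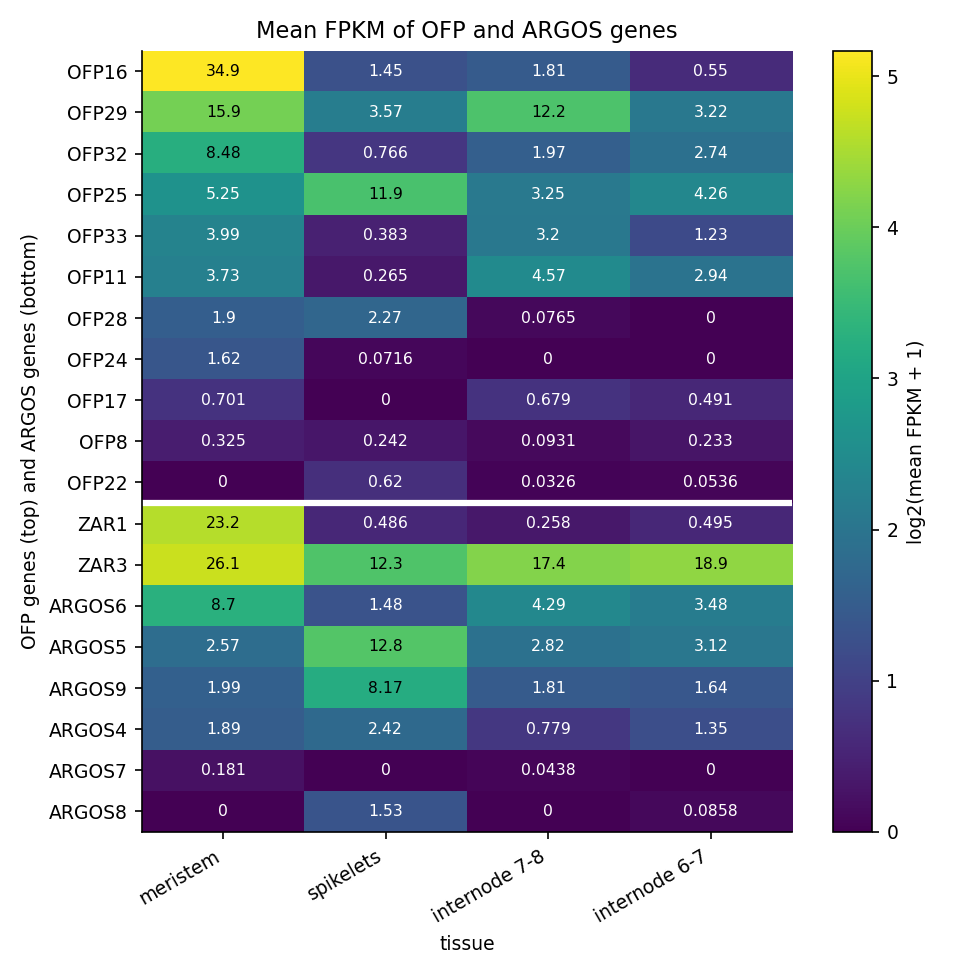
Mean level of OFP16, ZAR1 and all genes of the OVATE and ARGOS lists in the 4 tissues, untested genes included. Numbers are mean FPKM and colour gives log2(mean FPKM + 1). OFP16 and ZAR1 are bright in the meristem column alone, and ZAR3 is bright in all 4 columns.

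Genes that act downstream of ARGOS in Arabidopsis organ growth include a D-type cyclin, a class that drives entry into the cell cycle. Of 3 tested D-type cyclins, cycD4 (GRMZM2G133413) rose in the meristem, at 37.8 ± 1.15 FPKM (SD, n = 2), against 1.23, 4.46 and 2.43 FPKM in spikelets, internode 7-8 and internode 6-7. Its log2 difference was 3.49 (SE 0.18, limma adjusted p = 1.5e-06). The cyclins cycD1 and cycD2 were not called in the meristem. Of 3 ethylene signalling genes tested, the receptor genes etr2 and ERS14 and the gene RTE2, 0 were called in any of the 3 comparisons. Of these 3 genes 1 had an unadjusted limma p under 0.05 in spikelets against the internodes, and 0 in each of the other comparisons. Under the alternatives at most 1 of them was called, lower in spikelets. Of the D-type cyclins 0 were called in spikelets against the internodes, with 3 at an unadjusted limma p under 0.05. After scaling 1 was called higher, and under other alternatives at most 1 lower. Between the internodes 0 were called, with 1 at an unadjusted limma p under 0.05.

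The AP2/EREBP list held 33 further genes, of which 24 were tested. In the meristem 3 were called higher and 2 lower. Without the 2 genes that reached the filter only there, EREB55 and EREB68, 2 of 22 rose and 2 fell, with a median log2 difference of -0.28. Of these 22, 1 had its highest mean in the meristem, against 41.4% of all tested genes, so a gene called higher need not peak there. EREB55 (GRMZM2G160730), also listed as gl15, a gene of juvenile leaf identity, averaged 5.72 FPKM in the meristem and at most 0.398 FPKM in any other tissue. EREB197 (GRMZM2G174784) rose by 1.77 (SE 0.35, limma adjusted p = 0.0025), and EREB1 (GRMZM5G889719) fell by 1.38 (SE 0.27, limma adjusted p = 0.0027), a call lost without meristem library 1. The count of 3 became 1 when meristem library 1 was left out, and likewise for library 2.

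In spikelets, where EREB161 was lowest, 11 of the 24 AP2/EREBP genes were called higher than in the internodes and 2 lower. Of the 11, 5 reached the filter only through spikelets (EREB36, EREB56, EREB71, EREB101 and EREB179). Among the other 19 genes 6 rose and 2 fell, beside 12.7% and 16.8% of all tested genes. The median log2 difference of the 19 was 0.75. EREB179 (GRMZM2G129674) averaged 16.8 ± 5.67 FPKM in spikelets (SD, n = 3), against 0.101 and 0.0890 FPKM in internodes 7-8 and 6-7. EREB101 (GRMZM2G003466) averaged 5.02 FPKM in spikelets, against 0.170 and 0.231 FPKM in internodes 7-8 and 6-7. EREB171 (GRMZM2G013657) fell by 2.19 (SE 0.18, limma adjusted p = 6.8e-06), close in size to the -2.09 of EREB161. Among those 19 genes the highest mean was in spikelets for 12, while 25.9% of all tested genes were highest there.

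The bHLH list held 45 further genes, of which 36 were tested. In the meristem 15 were called higher and 3 lower. Without bHLH24 and bHLH139, which reached the filter only there, 13 of 34 rose and 3 fell, with a median log2 difference of 0.61, and 20 of the 34 had their highest mean there, against 41.4% of all tested genes. bHLH173 (GRMZM5G882527) averaged 37.1 ± 0.547 FPKM in the meristem (SD, n = 2) and between 2.62 and 3.41 FPKM in the other tissues, a log2 difference of 3.27 (SE 0.23, limma adjusted p = 8.2e-06). bHLH23 (GRMZM2G178182) rose by 2.65 (SE 0.28, limma adjusted p = 7.6e-05) and bHLH168 (GRMZM2G030744) by 2.62 (SE 0.21, limma adjusted p = 1.8e-05). Unlike bHLH114, bHLH173 was about as low in the internodes as in spikelets. The count of genes that fell was 1 without meristem library 2.

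In spikelets against the internodes 7 bHLH genes were called higher and 9 lower, beside 12.7% and 16.8% of all tested genes. Without bHLH20 and bHLH141, which reached the filter only through spikelets, 6 of 34 rose and 9 fell. bHLH123 (GRMZM2G369629) rose by 3.57 (SE 0.30, limma adjusted p = 7.4e-06). bHLH33 (GRMZM2G015666) and bHLH145 (GRMZM2G472671) fell by 2.69 and 2.58 (SE 0.22 and 0.17, limma adjusted p = 5.2e-06 and 1.2e-06). Both also rose in the meristem. Their log2 differences between internode 7-8 and internode 6-7 were 0.29 and 0.28, against 0.78 for bHLH114, and none was called. bHLH33 averaged 20.6, 0.753, 11.6 and 9.53 FPKM in meristem, spikelets, internode 7-8 and internode 6-7, and bHLH145 averaged 11.7, 0.129, 6.42 and 5.12 FPKM in the same tissues. Between the internodes 0 genes were called in the AP2/EREBP, bHLH, ARGOS and TALE lists, while 3, 4, 0 and 3 of their genes had an unadjusted limma p under 0.05.

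**Figure D4:**
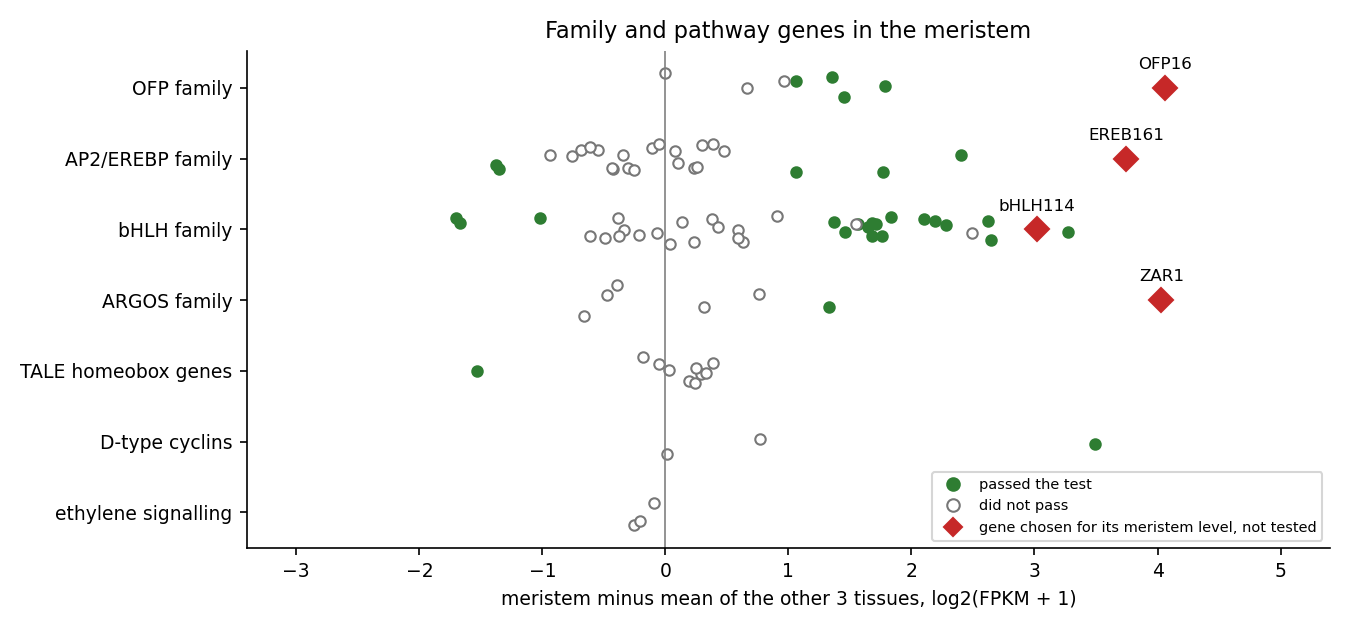
Meristem minus the mean of the other 3 tissues, as a difference of log2(FPKM + 1), for the tested genes of 7 gene lists. Each point is a gene, filled where called, and OFP16, ZAR1, EREB161 and bHLH114 are marked in their families without a test. The bHLH points reach 3.27 at bHLH173, and the TALE points other than knox3 are not called.

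Likeness of pattern was measured as Pearson's r of log2(FPKM + 1) over the 11 libraries, among 2218 tested genes with a name. Libraries of a tissue are not independent points, and the meristem level that chose the 4 genes enters r, so r was also taken over the 9 libraries outside it. For EREB161 and bHLH114 the low spikelet level, also used in the choice, enters that value too. An r of at least 0.95 over 11 libraries was reached by 114 of all tested genes for OFP16, 200 for ZAR1, 129 for EREB161 and 320 for bHLH114, so the genes named here are examples among many. The genes most like bHLH114 were sbp23, an SBP-box transcription factor gene (r = 0.992 over 11 libraries and 0.990 over 9), the cytokinin response regulator gene RR9 (0.989 and 0.984), WRKY1 (0.986 and 0.980), the flowering-time gene DLF1 (0.986 and 0.988) and bHLH145 (0.985 and 0.988). RR9 (GRMZM2G060485) averaged 31.7 FPKM in the meristem, 2.32 FPKM in spikelets and 17.4 and 12.4 FPKM in internodes 7-8 and 6-7.

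The genes most like EREB161 were RS2Z39, an SR-type splicing factor gene (r = 0.981 over 11 libraries and 0.945 over 9), a gene listed as GRF1 (0.975 and 0.939), the autophagy gene Atg10 (0.975 and 0.945), the auxin response factor gene ARF4 (0.973 and 0.920) and Baf1R-1 (0.972 and 0.939). GRF1 (GRMZM2G178261), a symbol that the reference also gives to GRMZM2G034876, averaged 134 FPKM in the meristem, 42.5 FPKM in spikelets and 75.0 and 59.8 FPKM in internodes 7-8 and 6-7.

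For OFP16 and ZAR1 the likeness was lower outside the meristem. The genes most like OFP16 were ZAGL1 (r = 0.974 over 11 libraries and 0.792 over 9), mlo3 (0.974 and 0.507), the zinc-finger homeodomain gene ZHD13 (0.971 and 0.572), TE1, an RNA-binding protein gene of leaf initiation (0.965 and 0.494) and tin1 (0.961 and -0.21). Those most like ZAR1 were EREB55 (0.985 and 0.483), tin1 (0.979 and 0.181), OFP24 (0.978 and 0.096), mlo3 (0.978 and 0.039) and WRKY109 (0.977 and 0.656). The median r of these 5 genes over 9 libraries was 0.507 for OFP16 and 0.181 for ZAR1. OFP16 and ZAR1 had mlo3 and tin1 in common among their 5, and tin1 was listed at 0 in every spikelet library. Of the genes named here, mlo3, ZHD13, TE1, tin1, EREB55 and OFP24 averaged below 1 FPKM in every tissue but the meristem. A gene that reaches the filter through the meristem has to be high there, as OFP16 and ZAR1 were chosen to be. Its high r over 11 libraries is therefore no support for a shared course.

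Among the 4 genes themselves, EREB161 and bHLH114 had r = 0.918 over 11 libraries and 0.946 over 9, with the low spikelet level that helped to choose both in each value. OFP16 and ZAR1 had r = 0.930 over 11 libraries and -0.71 over 9, where both were low. The remaining pairs lay between 0.535 and 0.805 over 11 libraries and between -0.49 and 0.105 over 9.

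**Figure D5:**
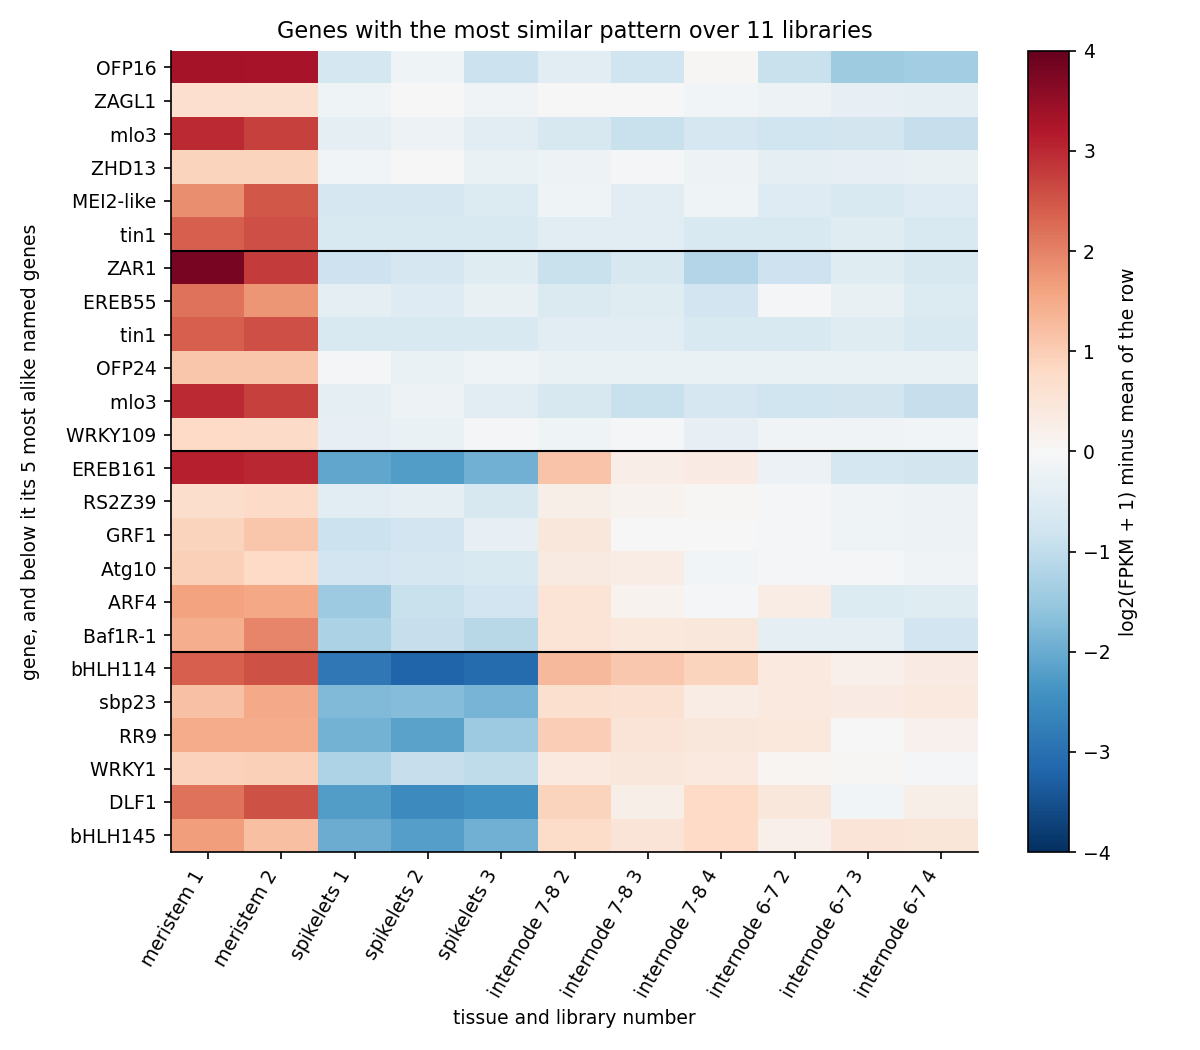
Level of each of the 4 genes and, below it, of the 5 named genes most like it, in the 11 libraries, as log2(FPKM + 1) minus the mean of the row. Red is above the row mean and blue below. Rows under EREB161 and bHLH114 are lowest in spikelets, as those genes are, while rows under OFP16 and ZAR1 are high in the meristem columns and nearly level elsewhere. The row MEI2-like is the gene also listed as TE1.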

How the data were processed

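RNA-seq of polyA-selected RNA was used, with strand kept through dUTP per the labels' protocols. The authors deposited gene-level FPKM values, with 68 value columns for 109715 genes. Cufflinks 2.1.1, TopHat2 2.0.8b and Bowtie2 2.1.0 are listed in the submitters' processing notes. For build, annotation, settings and use of strand in counting, nothing is stated in the sources used here. Antisense or overlapping genes and near-identical family members may share reads. Of the value columns, 57 matched no label and were not used. Internode columns carry the numbers 2, 3 and 4, which differ from those of the titles. They were used as replicates of their tissue without matching to a title, and their numbers entered a fit only in the replicate block. Gene rows lacking a value in the 11 columns used (6) were dropped.

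Gene symbols are those RefSeq lists for assembly Zm-B73-REFERENCE-NAM-5.0, which covered 15945 of the 29827 tested genes and named 2222. Its gene order gave neighbours among the deposited gene rows for OFP16, ZAR1 and bHLH114, and none for EREB161. No coordinates are printed, and the planned sequence comparison was not run.

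The test was limma (version 3.58.1, R 4.3.3) applied to log2(FPKM + 1), fitting a mean for each tissue over the 11 libraries together, with a mean-variance trend, two-sided tests and Benjamini-Hochberg adjustment over all tested genes. The code was tested on simulated data. This scale makes changes of low genes look smaller, and an exact 0 can be a failed estimate. The 4 genes and the gene lists were chosen with earlier results of these data known. Named beyond them were the 5 named genes most like each and, per list and comparison, up to 3 called genes of largest absolute difference. Among these, 1 gene is not reported here. Gene lists were drawn by symbol. From the cyclin list 4 genes were left out, since their symbols belong to lipid transfer proteins and mitochondrial carriers. Alternatives were a pseudocount of 0.1, median-of-ratios scaling, no filter on low values, no trend, the compared tissues alone, each library left out and a replicate block. The block joined same-numbered libraries of both internodes, and same-numbered libraries of meristem and spikelets.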

Additional observations from a re-analysis of the deposited data

How the results depend on the processing

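No difference among OFP16, ZAR1, EREB161 and bHLH114 changed direction under any alternative that could be fitted, and no call changed. With a pseudocount of 0.1, spikelets minus internodes became -3.11 for EREB161 and -6.21 for bHLH114, and meristem minus the other tissues 4.91, 5.56, 4.30 and 3.91 for OFP16, ZAR1, EREB161 and bHLH114. After median-of-ratios scaling the last was 2.83 for bHLH114, and meristem levels were 29.9 FPKM for OFP16, 46.5 FPKM for EREB161 and 42.8 FPKM for bHLH114. Over 9 libraries the median r of the 5 most alike genes was 0.507 for OFP16 and 0.181 for ZAR1. Genes called between the internodes numbered 37, 23 after scaling, and 7 to 161 with 1 library left out. The low end came without internode 7-8 library 2 (7) or 4 (8) and without internode 6-7 library 3 or 4 (16 each), the high end without internode 7-8 library 3. The cause was not tested. Same-numbered internode libraries had deviations from their tissue means correlated at -0.12, 0.202 and -0.11. Differently numbered ones lay between -0.21 and 0.256. With 3 libraries a tissue, these values cannot decide whether the numbers mark pairs. With the replicate block 4 genes were called between the internodes.

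With 2 meristem libraries and unknown depth, levels under 1 FPKM, such as ZAR1 outside the apex, are the least certain. Restricting the meristem comparison to its own tissues gives the same fit and was not run separately.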

Other observations

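In the reference gene order, the gene next to bHLH114, GRMZM2G177947, averaged 38.2 FPKM in the meristem, 17.8 FPKM in spikelets, 30.6 FPKM in internode 7-8 and 27.5 FPKM in internode 6-7, a flatter course than that of bHLH114. The genes on either side of OFP16, GRMZM2G055279 and GRMZM2G048793, averaged just above 1 FPKM in the meristem and below 1 FPKM in each other tissue. A gene next to ZAR1, GRMZM2G074793, averaged 0.353 FPKM in the meristem and 8.80 FPKM in spikelets. The neighbours were chosen by position alone, and no difference was tested.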
